A study of Mus musculus with 12 samples.

Results

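The genes described here are those of the cytosolic ribosomal proteins, measured by RNA-seq of isolated mouse glomeruli, the capillary tufts that filter blood in the kidney. They were chosen by symbol alone, as the names that begin with Rpl or Rps and a digit, together with Rplp0, Rplp1, Rplp2 and Rpsa. Names of ribosomal S6 kinases (Rps6k) and of numbered pseudogenes (-ps) were left out. This gave 87 of the 13475 genes listed in both arms of the study. Of these, 77 are standard subunits, 46 of the large and 31 of the small ribosomal subunit. The other 10 are paralogs, retrocopies or look-alike symbols (Rpl10l, Rpl22l1, Rpl32l, Rpl36al, Rpl37rt, Rpl7l1, Rps19bp1, Rps27l, Rps27rt and Rps4l). Of this group Rps19bp1 encodes a nucleolar protein that binds Rps19 and is not a ribosomal protein, and Rps4l is annotated as a transcribed pseudogene. Rpl32l and Rpl37rt are annotated as protein-coding in RefSeq but as processed pseudogenes in GENCODE M21, that of Rpl37rt as transcribed.

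The libraries came from 12 mice of C57BL/6 background, 3 different mice in each of 4 groups. Untreated controls and mice with a podocyte-specific knockout (KO) of Dach1, which encodes the transcriptional regulator dachshund-1, were 10 weeks old (the baseline arm). Other controls and knockouts were made diabetic with streptozotocin (STZ), which destroys the beta cells of the pancreas. The daily dose was 50 µg per g for 5 days, and glomerular RNA was isolated 10 days later (the STZ arm). The titles of the STZ controls carry the term hetN, which the labels do not explain. What confines the knockout to podocytes is not given in the sources used here, and podocytes are 1 of several glomerular cell types. The question named by the title is which genes DACH1 controls in podocytes, untreated and in experimental diabetes.

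Each ribosome of the cytosol holds 1 copy of nearly every ribosomal protein, and the genes of these proteins are scattered over the genome, here over 19 chromosomes. Their messages are among the most abundant of any cell and are known for the terminal oligopyrimidine (TOP) motif, a cytosine at the cap followed by a run of pyrimidines, through which the kinase mTOR governs their translation. In a bulk library the amount of these messages reflects both the cells present and the content of each cell.

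Sequences at annotated starts show the motif in part of the family. RefSeq windows (GRCm38.p6) were found for 66 of the 87 genes. A C at the annotated start followed by at least 4 pyrimidines (C or T) on the strand of the message was present in 15 of the 66 genes (22.7%), against 3.01% of the 27025 genes with a window. A match beginning within 5 bases of the annotated start on either side was present in 31 of the 66 (47.0%), against 21.2% of all. No match says only that these letters are not at that position, since annotated starts can miss the cap site by several bases. In the examples below, which show the long tracts and a gene with its retrocopy, 15 bases before the start are followed by the first 15 transcribed bases, and the capitals mark the tract that begins at the start.
Rpl15, chr14:18270972-18271001, minus strand: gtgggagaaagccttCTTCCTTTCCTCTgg
Rpl35, chr2:39005117-39005146, minus strand: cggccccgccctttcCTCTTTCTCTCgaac
Rps10, chr17:27635230-27635259, minus strand: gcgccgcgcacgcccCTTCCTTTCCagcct
Rps18, chr17:33955651-33955680, minus strand: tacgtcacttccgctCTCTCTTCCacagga
Rps6, chr4:86857353-86857382, minus strand: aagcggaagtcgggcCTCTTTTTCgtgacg
Rps27, chr3:90213634-90213663, minus strand: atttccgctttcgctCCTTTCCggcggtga
Rps27rt, chr9:114982725-114982754, minus strand: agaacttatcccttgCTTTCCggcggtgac

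Rps27rt, the last of these, is a retrocopy of Rps27, a small-subunit protein with a zinc finger. Its coding bases match those of Rps27 at all 252 positions (0 differences). Sequences from GENCODE M21 were aligned. The shared stretch, without the stop codon, is shown because no read that lies wholly inside it can be assigned to 1 of the 2 genes, and it is in lower case throughout since no base differs.
Rps27 and Rps27rt: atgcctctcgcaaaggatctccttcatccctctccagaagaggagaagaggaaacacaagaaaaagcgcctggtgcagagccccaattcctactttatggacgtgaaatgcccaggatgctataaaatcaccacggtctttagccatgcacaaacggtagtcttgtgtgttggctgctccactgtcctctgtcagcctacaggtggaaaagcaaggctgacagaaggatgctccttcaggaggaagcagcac

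Rpl37rt stands in the same relation to Rpl37, a large-subunit protein. The 2 differ at 1 of the 291 coding positions of Rpl37 (G249A, with Rpl37 first and positions counted from the A of the start codon). The stretch from position 229 to 269 is shown, with the differing base in capitals.
Rpl37: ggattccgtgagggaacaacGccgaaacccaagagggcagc
Rpl37rt: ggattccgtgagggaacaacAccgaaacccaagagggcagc

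The deposited counts of these copies followed their partners. Rps27rt had 6240, 5259 and 6410 counts in the 3 untreated controls, where Rps27 had 6239.5, 5264 and 6412.5. Over all 12 libraries the 2 rows differed by 0 to 43 counts, at most 0.241%. The counts of Rpl37rt were between 88.1% and 91.0% of those of Rpl37. Rpl32l, whose aligned sequence differs from the coding part of Rpl32 by 17 edits over 405 bases (95.8% identity), had between 19.3% and 22.7% of the counts of Rpl32. For these 3 pairs the 2 rows cannot be taken as separate measurements, and how reads that fit both places were counted is not given in the sources used here. The retrocopies lie on other chromosomes than their partners, with Rps27 on 3 and Rps27rt on 9, Rpl37 on 15 and Rpl37rt on 5, and Rpl32 on 6 and Rpl32l on 10.

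**Figure D1:**
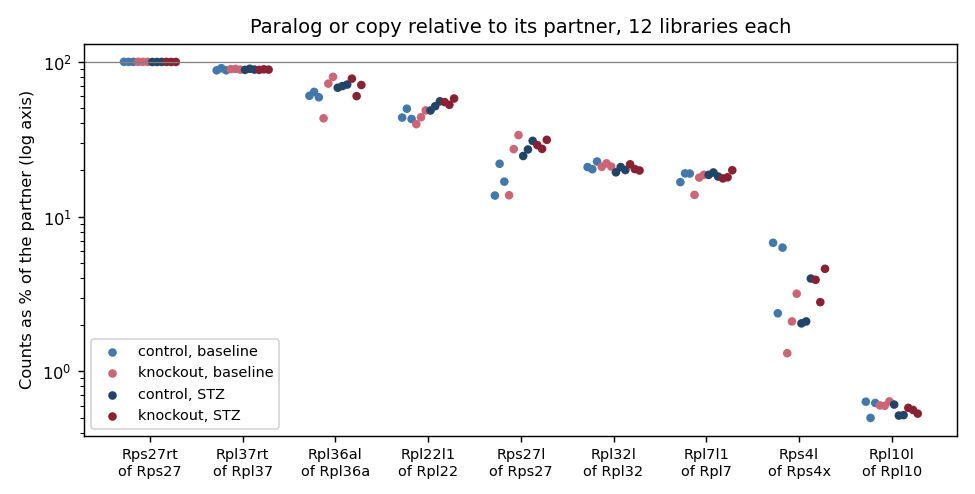
Counts of each paralog or copy as a percentage of its partner's counts (log axis), with 1 point per library, coloured by group. Rps27rt lies on 100% and Rpl37rt between 88.1% and 91.0% in every library. The paralogs with lower identity than Rpl32l vary more between libraries, Rpl10l least and Rps4l most, from 1.31% to 6.77% of Rps4x.

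Paralogs of lower identity than Rpl32l varied more against their partners, Rpl10l the least, but among them the variation did not follow the order of identity. The highest ratio of counts in a library was 1.28-fold the lowest for Rpl10l, close to 1.17-fold for Rpl32l. For Rpl7l1, Rpl22l1, Rpl36al and Rps27l it was between 1.44-fold and 2.46-fold. Rps27l, a paralog of Rps27 that is known as a target of p53, matched 76.98% of the Rps27 coding bases and had between 13.7% and 33.6% of its counts. Rpl36al, a paralog of the X-linked Rpl36a, matched 87.7% and had 43.2% to 80.0% of its partner's counts. Rpl22l1, a paralog of the RNA-binding large-subunit protein Rpl22, matched 69.3% and had 39.6% to 57.9%. Rpl7l1, a paralog of the large-subunit protein Rpl7, matched 56.9% and had 13.8% to 19.9%. Rpl10l, an intronless copy of the X-linked Rpl10 that is known for its role in male germ cells, matched 84.7%. It stood at 3.62 ± 0.76 CPM (CPM, counts scaled to the library total after TMM normalisation, SD, n = 3) in untreated controls, 0.50% to 0.64% of the counts of Rpl10. Rpl3l, a muscle paralog of Rpl3, was listed in the STZ arm only and so was not a member.

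The share of all counts in the 87 genes was low and similar in the 4 groups. It was 2.25%, 1.96% and 2.30% in the 3 untreated controls and 2.48%, 1.97% and 2.00% in the untreated knockouts. The STZ controls had 2.29%, 1.99% and 2.76% and the STZ knockouts 2.65%, 2.03% and 2.37%. The group means were 2.17% ± 0.18, 2.15% ± 0.28, 2.34% ± 0.39 and 2.35% ± 0.31 (SD, n = 3), in that order. All 4 groups overlapped, and the highest library (STZ control 3) lay 1.40-fold above the lowest (untreated control 2). The large subunit took 1.38 to 1.52 times as many counts as the small one.

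**Figure D2:**
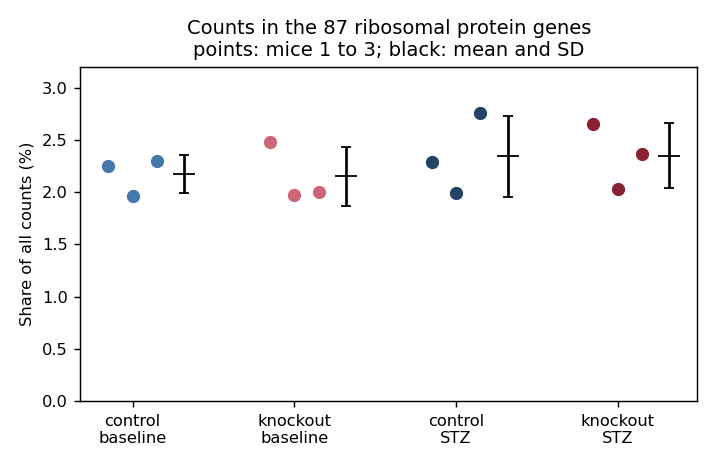
Percentage of each library's counts that fall in the 87 genes, for the 3 mice of each group (points), with the group mean and SD in black, on an axis that starts at 0. The 12 values lie between 1.96% and 2.76% and the groups overlap.

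Per length the standard subunits stood far above most genes. In untreated controls their median was 276 CPM per kb of transcript (quartiles 219 and 408), against 9.32 for 12829 other genes with a length. The highest by transcript length were Rpl10, which is needed for the joining of the subunits, at 767 ± 70.2 CPM per kb, Rpl41, which encodes a very short basic peptide, at 726 ± 33.3, and Rps27, at 714 ± 109 (SD, n = 3). Those 3 do not differ beyond their spread, and the counts of Rps27 run with its identical copy. The lowest were Rps20 at 43.4 ± 4.78, Rpl22 at 24.7 ± 3.03 and Rps15a at 20.99 ± 2.24 CPM per kb (SD, n = 3). The transcripts used for Rps20 and Rps15a are 3706 and 5179 bases long, with coding parts of 357 and 390. By coding length the order changed, with Rpl41 (4231), Rps29 (1384) and Rpl21 (1029 CPM per coding kb) highest and Rpl14 (224), Rps23 (161) and Rpl22 (132) lowest, so that 2 of the 6 genes, Rpl41 and Rpl22, were named under both lengths.

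The genes of the ribosomal stalk and the laminin receptor had overlapping levels in knockouts and controls of each arm. Rplp0, which anchors the acidic stalk proteins to the large subunit and is a common reference gene for PCR, stood at 497, 439 and 507 CPM in untreated controls and 554, 466 and 469 CPM in untreated knockouts. After STZ it stood at 594, 429 and 575 CPM in controls and 684, 456 and 528 CPM in knockouts. Its groups overlapped in both arms, with log2 fold changes between knockout and control of 0.04 at baseline (95% interval -0.25 to 0.33) and 0.06 after STZ (-0.41 to 0.54). Rplp1 and Rplp2, the acidic proteins that dimerise on the stalk, stood at 323 ± 37.4 and 127 ± 19.3 CPM in untreated controls (SD, n = 3), with log2 fold changes for the knockout of 0.06 and 0.00 at baseline and 0.12 and 0.07 after STZ. With STZ, Rplp1 stood at 316 ± 56 CPM in controls and 342 ± 75 CPM in knockouts, and Rplp2 at 141 ± 21.8 and 148 ± 38.5 CPM (SD, n = 3). Rpsa, the small-subunit protein also known as the laminin receptor precursor, stood at 512 ± 59.7 CPM in untreated controls and 549 ± 96.0 CPM in untreated knockouts (SD, n = 3). In treated mice it stood at 606 ± 81.2 CPM in controls and 637 ± 145 CPM in knockouts (SD, n = 3). Its log2 fold changes for the knockout were 0.10 at baseline and 0.07 after STZ, and for STZ 0.21 in controls and 0.18 in knockouts. None of the 4 passed in any comparison.

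Loss of Dach1 from podocytes moved no gene of the family past the threshold at baseline. The targeted gene itself was lower in all 3 knockouts than in any control of the same arm. Its log2 fold change was -1.48 at baseline (SE 0.23, adjusted p = 0.111) and -1.41 after STZ (SE 0.14, adjusted p = 0.00942). All adjusted p-values given here without another tool's name are from edgeR (quasi-likelihood F-test) after Benjamini-Hochberg adjustment over all genes tested. At baseline 0 of the 87 genes passed an adjusted p of 0.05, where 0.23% of the 13475 genes tested did. The unadjusted p was under 0.05 for 2 of the 87. DESeq2 also called 0. The median log2 fold change of the 87 was 0.02, against 0.01 over all genes, and 63 of 87 estimates were above 0 (72.4%), against 52.4% of all genes. For 86 of the 87 the 95% interval lay within 2-fold in either direction, and for 85 within 1.5-fold. These intervals are per gene and are not adjusted for their number.

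The genes of smallest p in that comparison did not pass. Rps4l, the transcribed pseudogene of Rps4x, stood at 31.6, 9.10 and 30.4 CPM in untreated controls and 7.36, 8.00 and 11.7 CPM in untreated knockouts. A pair of controls was high, whereas the remaining control lay among the knockouts, so the groups overlapped (log2 fold change -1.39, SE 0.48, adjusted p = 0.667). Rps4l lies on chromosome 6 from 148354656 to 148355596, inside Tmtc1, and strand handling is not given in the sources used here, so its counts may include reads of that gene. Tmtc1 stood at 348, 212 and 281 CPM in the same controls and 246, 150 and 165 CPM in the same knockouts. After STZ it stood at 413, 407 and 285 CPM in controls and 246, 272 and 240 CPM in knockouts. In those mice Rps4l stood at 9.47, 7.96 and 18.1 CPM and at 19.1, 11.0 and 20.01 CPM. The part of Tmtc1 reads in the Rps4l counts was not tested. Rps2, a small-subunit protein of the mRNA entry channel, stood at 415, 403 and 444 CPM in untreated controls and 501, 467 and 522 CPM in untreated knockouts. All 3 knockouts lay above all 3 controls, the log2 difference being 0.24 (SE 0.10, adjusted p = 0.711), and the Rps2 locus overlaps the small nucleolar RNA host gene Snhg9. Rpl7a, a large-subunit protein, stood at 371, 366 and 382 CPM in controls and 421, 391 and 413 CPM in knockouts, again with no overlap (0.13, SE 0.09, adjusted p = 0.802). These were the 2 of 87 genes whose groups did not overlap at baseline, where 11.8% of all genes tested did not overlap. Rps27l was also among the smallest p (0.41, SE 0.20, adjusted p = 0.786), and its levels follow below.

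After STZ the knockout and control libraries were again not separated in these genes. Of the 87, 0 passed an adjusted p of 0.05, where 1.07% of the 16291 genes tested in that arm did. In this comparison 0 had an unadjusted p under 0.05, and DESeq2 called 0. The median log2 fold change was 0.03, against -0.02 over all genes, with 62 of 87 above 0 (71.3% against 46.6% of all genes). The 95% interval lay within 2-fold for 86 and within 1.5-fold for 80. The smallest p belonged to Rps4l (0.50, SE 0.36, adjusted p = 0.826), Rpl21 (-0.18, SE 0.13, adjusted p = 0.832), Rpl15 (0.19, SE 0.15, adjusted p = 0.849) and Rpl41 (0.15, SE 0.20, adjusted p = 0.954). Rpl21, a large-subunit protein, stood at 539, 529 and 595 CPM in STZ controls and 526, 424 and 516 CPM in STZ knockouts. It was the 1 gene of the 87 whose groups did not overlap, where 14.9% of all genes tested did not. Rpl15, whose tract is the longest of those printed above, stood at 328 ± 32.3 CPM in STZ controls and 374 ± 57.4 CPM in STZ knockouts (SD, n = 3), with overlapping groups.

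**Figure D3:**
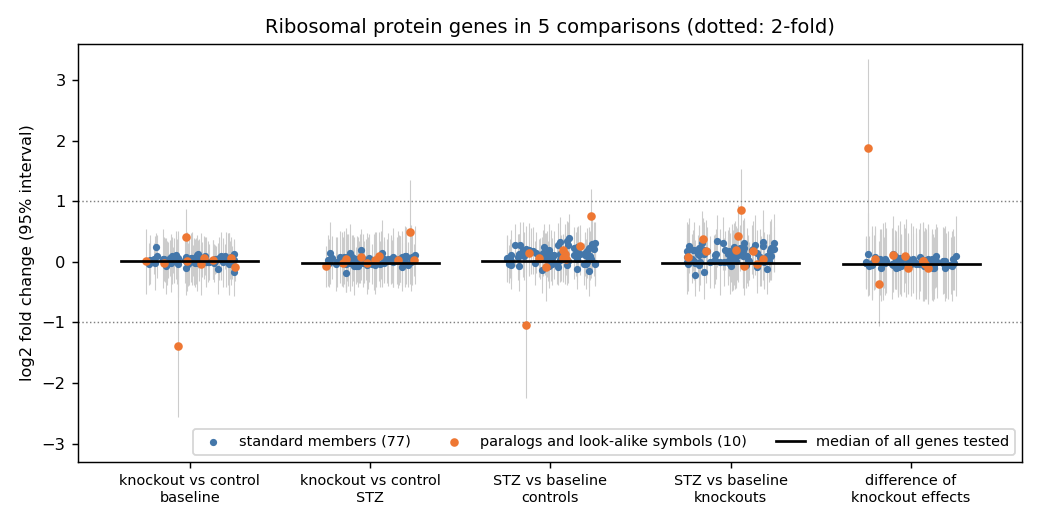
Log2 fold change of each of the 87 genes (points) with its 95% interval (grey) in the 5 comparisons, standard subunits in blue, paralogs and look-alike symbols in orange, and the median of all genes tested as a black bar. Nearly all points lie close to 0 and within the dotted lines at 2-fold, and the points far from 0 are Rps4l and Rps27l.

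The STZ and baseline arms were compared within each genotype. They differ also in depth and in the filter behind the deposited counts, and the age of the STZ mice is not given in the sources used here. The treatment therefore cannot be told apart from these or other differences between the arms. In controls 0 of the 87 genes passed, where 0.23% of the 13473 genes tested did, and 2 had an unadjusted p under 0.05. The median log2 fold change was 0.11, against 0.02 over all genes, and 69 of 87 were above 0 (79.3% against 53.7%). In knockouts 0 of the 87 passed, where 0.178% of all genes tested did, and 2 had an unadjusted p under 0.05. There the median was 0.11 against -0.02 over all genes, with 72 of 87 above 0 (82.8% against 46.9%). The 95% intervals lay within 2-fold for 85 genes in controls and 86 in knockouts, and within 1.5-fold for 66 and 55. DESeq2 called 1 of the 87 in controls, Rps27l, and 0 in knockouts.

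Rps27l had the smallest p of the family in controls. It stood at 37.0, 44.5 and 44.7 CPM in untreated controls and 61.6, 63.9 and 94.1 CPM in STZ controls, so that every STZ value lay above every untreated one. The log2 fold change was 0.77 (SE 0.18, 95% interval 0.33 to 1.20), and its adjusted p was 0.218 by edgeR and 0.0165 by DESeq2, with 0.0165 to 0.514 as the range over 14 alternatives. In knockouts it stood at 42.9, 54.2 and 70.5 CPM untreated and 90.1, 59.9 and 77.5 CPM after STZ, where the groups overlapped (0.42, SE 0.21, adjusted p = 0.430). Among untreated knockouts and among the STZ mice of each genotype, the mice with the most Rps27l were those with the most proximal tubule message. Over 24 proximal tubule markers the mean was 9.16 and 8.32 log2 CPM in untreated knockouts 3 and 2. It was 8.49 in STZ control 3, 8.32 in STZ knockout 1 and between 6.03 and 7.63 in the remaining 8 libraries. The order did not hold in every mouse. In untreated controls 2 and 3 the mean was 7.63 and 7.08, with Rps27l at 44.5 and 44.7 CPM. In STZ knockouts 2 and 3 it was 6.85 and 6.75, with Rps27l at 59.9 and 77.5 CPM. With the tubule mean as a covariate the STZ difference of Rps27l in controls was 0.67 (adjusted p = 0.0919). The part of tubule content in the Rps27l levels was not tested.

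**Figure D4:**
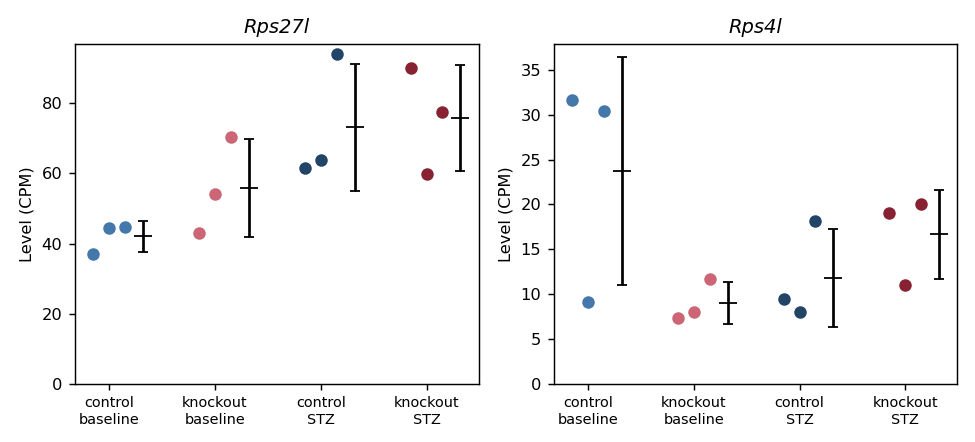
Levels of Rps27l (left) and Rps4l (right) in CPM for the 3 mice of each group (points), with the group mean and SD in black, on axes that start at 0. For Rps27l the 3 STZ controls lie above the 3 untreated controls, and for Rps4l untreated controls 1 and 3 lie above the remaining 10 libraries.

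The other genes of small p in the STZ comparisons did not pass either. Rpl34, a large-subunit protein, stood at 96.4, 80.6 and 101 CPM in untreated controls and 117, 106 and 138 CPM in STZ controls, without overlap (0.34, SE 0.14, adjusted p = 0.395). In knockouts its difference was 0.35 (SE 0.18, adjusted p = 0.430). Rps19, the small-subunit protein known from Diamond-Blackfan anaemia, stood at 162 ± 18.7 CPM in untreated and 218 ± 42.3 CPM in STZ controls (SD, n = 3), a log2 difference of 0.40 (adjusted p = 0.402). The X-linked Rpl39, at the exit of the peptide tunnel, stood at 104 ± 14.02 and 132 ± 15.8 CPM (0.31, adjusted p = 0.430). Rpl22l1 was higher in all STZ than in all untreated mice of the same genotype, at 23.1, 21.7 and 23.6 CPM in untreated controls, 24.7, 25.5 and 33.7 CPM in treated controls, 24.05, 19.7 and 23.6 CPM in untreated knockouts and 33.0, 25.3 and 30.6 CPM in treated knockouts. Its log2 fold changes were 0.26 (adjusted p = 0.497) in controls and 0.37 (adjusted p = 0.313) in knockouts. In knockouts Rps4l had the smallest p (0.86, SE 0.28, adjusted p = 0.236), at 19.1, 11.0 and 20.01 CPM after STZ. The groups did not overlap for 6 of 87 genes in controls (Rpl22l1, Rpl34, Rpl39, Rps25, Rps27a and Rps27l, all higher after STZ), where 19.8% of all genes tested did not overlap. In knockouts they did not overlap for 1, Rpl22l1, where 21.6% of all genes did not.

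The difference between the knockout effects of the 2 arms was tested on all 12 libraries. Of the 87 genes 0 passed, where 0.00742% of 13475 genes did, and 1 had an unadjusted p under 0.05. That gene was Rps4l, at 1.89 (SE 0.66, 95% interval 0.43 to 3.34, adjusted p = 0.975). The next were Rps27l (-0.36, SE 0.32), Rpl7l1 (0.12, SE 0.14) and Rpl7a (-0.09, SE 0.16), each again at 0.975. The median over the 87 was -0.01, against -0.03 over all genes, with 40 of 87 above 0. DESeq2 called 0. The intervals lay within 2-fold for 85 and within 1.5-fold for 48.

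Between mice of 1 group the family moved as a block. For each gene the deviation from the mean of its arm was taken on a log2 scale of CPM plus 1. At baseline the median deviation of the 77 standard subunits was 0.07, -0.19 and 0.09 in the controls and 0.22, -0.13 and -0.05 in the knockouts. In the STZ arm the controls were at -0.01, -0.22 and 0.20 and the knockouts at 0.23, -0.21 and 0.01. Untreated knockout 1 was the highest library of the baseline arm for 70 of the 77, and untreated control 2 the lowest for 56. In the STZ arm all 77 lay above the mean of the arm in control 3 and in knockout 1, and 0 of 77 did so in knockout 2 and 1 of 77 in control 2. High and low mice occurred in both genotypes of each arm. The sign of the family's median knockout effect turned on single mice, to -0.10 at baseline without knockout 1 and -0.06 without control 2, and to -0.08 after STZ without knockout 1 and -0.07 without control 2. The median STZ difference of 0.11 in controls was 0.01 without STZ control 3 and 0.02 without untreated control 2. In knockouts it was -0.02 without STZ knockout 1, and 0.03 and 0.06 without untreated knockouts 2 and 3.

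The movement was broadly alike across parts of the family, with differences by coding length in the STZ arm. In untreated knockout 1 the median deviation was 0.21 for the large and 0.25 for the small subunit, and in STZ knockout 2 it was -0.20 and -0.23. For the 39 standard subunits with a coding length of up to 456 bases it was 0.23 and -0.22 in these 2 libraries, and for the 38 longer ones 0.22 and -0.19. The 15 genes with a pyrimidine tract at the annotated start had 0.21 and -0.23, and the 51 with a window but no tract there 0.21 and -0.20. In other STZ libraries the parts by coding length were further apart. In STZ control 3 and knockout 1 the shorter subunits stood at 0.23 and 0.27, and the longer ones at 0.16 and 0.20. In STZ control 1 and knockout 3 the shorter ones stood at -0.04 and -0.02, and the longer ones at 0.03 and 0.02. Over the 12 libraries the highest value of a standard subunit was between 1.28-fold (Rpl7a) and 1.99-fold (Rps21) its lowest, with a median of 1.55-fold, against 1.72-fold for all 13471 genes with a mean of at least 1 CPM. Within groups the median coefficient of variation of the 87 genes was 11.0%, 14.5%, 14.6% and 16.3% (untreated controls and knockouts, STZ controls and knockouts), against 10.8%, 13.3%, 14.5% and 11.9% over all those genes. The members commonly used as PCR references varied with the rest, Rpl13a from 308 to 551 CPM, Rplp0 from 429 to 684 CPM and Rps18 from 214 to 318 CPM over the 12 libraries.

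**Figure D5:**
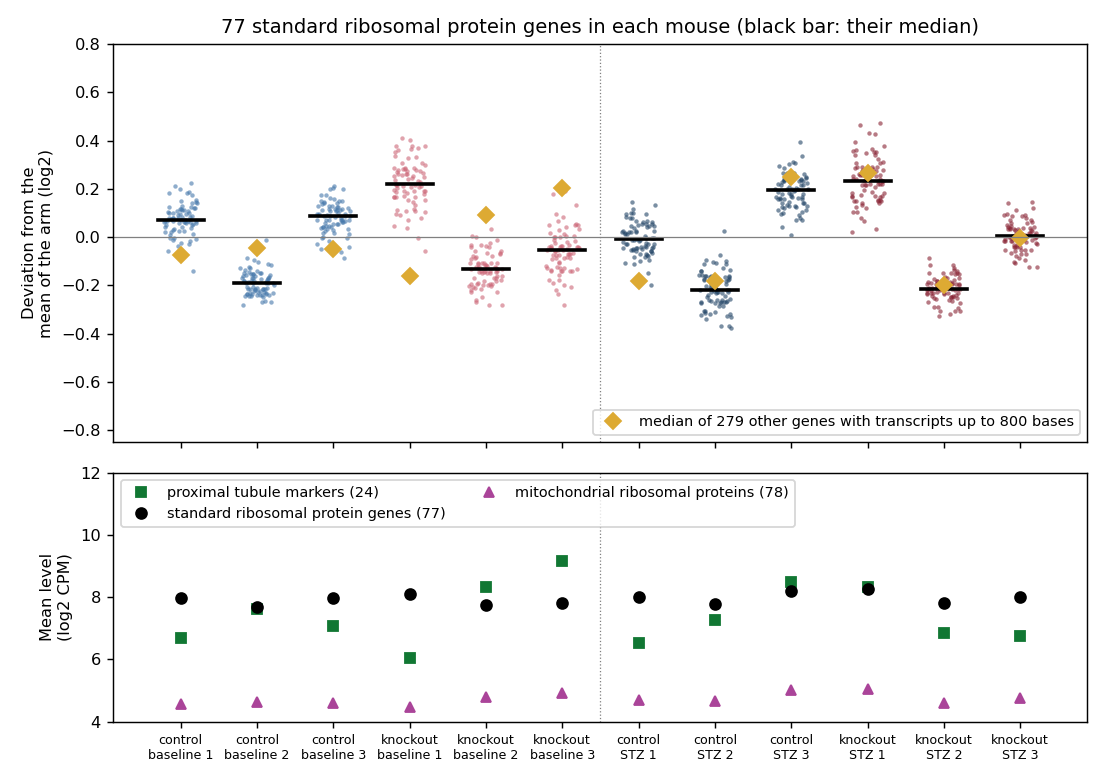
Upper panel: deviation of each of the 77 standard subunits from the mean of its arm in each library (log2, points), their median (black bar) and the median of 279 other genes with transcripts of up to 800 bases (diamonds). Lower panel: mean log2 CPM of the standard subunits, of 24 proximal tubule markers and of 78 mitochondrial ribosomal protein genes. The family moves together from mouse to mouse, and in the STZ arm, unlike at baseline, the diamonds lie beside most of the black bars.

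Other measures moved with the family in 1 arm and not in the other. For 279 other genes with transcripts of up to 800 bases, the median deviation of the STZ controls was -0.18, -0.18 and 0.25 and that of the STZ knockouts 0.27, -0.20 and 0.00, close to that of the ribosomal protein genes except in control 1. In the baseline arm the controls had -0.07, -0.04 and -0.05 and the knockouts -0.16, 0.09 and 0.20, with the opposite sign in 5 of the 6 libraries. The proximal tubule mean was highest after STZ in control 3 and knockout 1 (8.49 and 8.32 log2 CPM), where the ribosomal protein genes were high, but at baseline it was lowest in knockout 1 (6.03), where they were highest. All 24 tubule markers had estimates above 0 in the knockout comparison at baseline (median log2 fold change 1.03, 0 of 24 called), and 7 of 24 did after STZ. In these bulk libraries fewer cells of a type and less RNA per cell cannot be told apart, and the part of tubule content or of RNA handling in the block movement was not tested. Mesangial markers, of the contractile cells between the capillaries, had a mean of 8.63 to 9.12 log2 CPM at baseline and 7.5 to 8.12 after STZ. All 7 had estimates below 0 and an unadjusted p under 0.05 in the STZ comparison of each genotype (medians -1.07 in controls, with 1 of 7 called, and -0.80 in knockouts, with 0 called), and their part in the STZ comparisons of the ribosomal protein genes was not tested. The defining podocyte and endothelial markers were present throughout, with means of 9.45 to 10.3 and 9.0 to 9.87 log2 CPM. Immune markers had a mean of 2.08 to 2.71 log2 CPM at baseline and 3.05 to 5.54 after STZ. In the STZ comparisons of controls and knockouts 1 of 10 endothelial estimates in each was above 0 (medians -0.32 and -0.55). Of the podocyte markers 9 and 10 of 10 were (medians 0.25 and 0.34), and of the immune markers 10 and 9 of 10 (medians 2.26 and 1.71). Of these lists only the endothelial Sost was called in them, higher after STZ in controls, where 0.23% of all genes tested passed. In the knockout comparison at baseline 2 of 10 podocyte markers had estimates above 0 (median -0.26). For smooth muscle and renin cells 1 of 6 did (median -0.69), and for red blood cells 0 of 5 (median -0.92). None was called, with an unadjusted p under 0.05 for 3, 4 and 0. After STZ the counts above 0 were 3 of 10, 3 of 7 and 0 of 5. There the podocyte gene Cdkn1c was called lower and the smooth muscle gene Tagln higher, where 1.07% of all genes tested passed. The part of these shifts in the ribosomal protein genes was not tested.

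Genes that work with the ribosome gave few calls, in a knockout comparison after STZ where 1.07% of all genes tested passed. Among 22 other messages with a TOP motif, such as those of elongation factors, 0 of 22 were called at baseline and 1 after STZ in the knockout comparison, the histone chaperone gene Nap1l1 (-0.96, SE 0.13, adjusted p = 0.0257). Their mean level was 8.01, 7.79 and 8.00 log2 CPM in untreated controls, 8.09, 7.79 and 7.85 in untreated knockouts. The STZ controls had 7.97, 7.84 and 8.00, and the STZ knockouts 8.03, 7.83 and 7.89. Its highest library in each arm, knockout 1, was also the highest in the mean of the standard subunits. Of 28 genes of mTOR signalling and S6 kinases measured at baseline 0 were called. After STZ 2 of 29 were, Deptor, an inhibitor of mTOR, which fell by 0.83 (log2, SE 0.13, adjusted p = 0.0439), and Rps6kc1, an S6-kinase-like gene, which rose by 0.65 (SE 0.10, adjusted p = 0.0387). None of 26 translation initiation factors or 78 mitochondrial ribosomal protein genes passed in any of the 5 comparisons, and none of the genes of ribosome biogenesis (50 measured in both arms) did. In the STZ comparison of knockouts 46 of those 50 had estimates above 0 (median 0.21), and 16 had an unadjusted p under 0.05. Over all genes of that comparison 46.9% had estimates above 0, and 1983 of 13473 had an unadjusted p under 0.05. In the STZ comparison of controls 40 of the 50 were above 0 (median 0.13), against 53.7% of all genes. There 4 of the 50 had an unadjusted p under 0.05, against 1693 of 13473. Of the 78 mitochondrial ribosomal protein genes 66 had estimates above 0 in the knockout comparison at baseline (median 0.15). After STZ 53 did (median 0.03). In the STZ comparisons 71 did in controls (median 0.17) and 46 in knockouts (median 0.04). The medians of the cytosolic ribosomal protein genes were 0.02, 0.03, 0.11 and 0.11 in the same order. For the difference of the knockout effects 22 of the 78 were above 0 (median -0.14).

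The steps were tested on simulated counts with known changes. At baseline the knockout comparison (13479 genes) recovered 1.49% of the genes set to a 1.5-fold change and 19.4% of those set to 2-fold. After STZ (16292 genes) the shares were 0% and 32.8%. At 2-fold the STZ comparison recovered 28.4% in controls and 13.4% in knockouts, and the difference of the knockout effects 5.97%. Most changes set to 1.5-fold or 2-fold were thus missed in the simulation. The shares were not computed for the ribosomal protein genes alone, so they do not say how often a change in that family would be missed. Genes set to no change made up 2 of 76 calls in the knockout comparison at baseline and 8 of 96 after STZ. For STZ they made up 11 of 91 calls in controls and 4 of 77 in knockouts, and 2 of 57 for the difference of the knockout effects. The interval beside each estimate gives the bound that holds for that gene. No label says that numbers pair mice across groups, or ties the mice of a group to separate litters.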

How the data were processed

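The values, 1 table per library, are estimated counts that the authors deposited without scaling (between 10.5% and 11.5% of a library's values end in 0.5), rounded here for modelling. BWA and mm10 are named, without a role, in the submitters' processing notes. Not given in the sources used here are the counting tool, annotation, strand handling and treatment of reads with several matches. Library totals lay between 2.26e+07 and 2.49e+07 counts (baseline) and between 6.61e+07 and 7.86e+07 (STZ). Of the values of all genes 18 were blank (8 at baseline, 10 after STZ) and were taken as 0; none belonged to the 87 genes.

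Genes were filtered with filterByExpr, scaled with TMM and tested by the quasi-likelihood F-test of edgeR 4.0.16 (under R 4.3.3, with limma 3.58.1), and p-values were adjusted by Benjamini and Hochberg's method over all genes tested, at a threshold of 0.05. DESeq2 1.42.0 was an alternative, and the others were further scalings, no filter, a proximal tubule covariate, all 12 libraries in 1 fit and leaving out each mouse. All 87 genes passed the filter. CPM in the text are TMM-scaled over the 12 libraries. Standard errors and 95% intervals come from the F statistic. List means are log2 CPM (prior count 2). Transcript and coding lengths are those of GENCODE M21 (the longest protein-coding transcript paired with RefSeq). Coding length replaced a protein table, which was not used here. Positions are RefSeq's, GRCm38.p6.

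The members and lists were chosen with earlier results of these data known. Named were, per comparison, up to 10 called members filled to 4 by smallest p, the paralogs, the stalk genes and Rpsa, the 3 highest and 3 lowest per length, and called genes of the related lists. The result of 1 related list is not reported here. Rpl32l, Rpl37rt, Rpl13a and Rps18 were added after the values were seen, as were the genes named for their non-overlapping groups and at the ends of the ranges. The p-values judge a difference between groups against the spread between the mice of a group.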

Additional observations from a re-analysis of the deposited data

How the results depend on the processing

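Of 150 counts of called members under the alternatives, 149 were 0, the same as the counts reported. The exception was DESeq2 in the STZ comparison of controls, which called 1 member higher, Rps27l (log2 fold change 0.77, adjusted p = 0.0165). The cause was not tested. When each mouse was left out in turn, the median log2 fold change of the 87 genes ran from -0.10 to 0.09 for the knockout at baseline, from -0.08 to 0.13 for the knockout after STZ, from 0.01 to 0.20 for STZ in controls, from -0.02 to 0.24 for STZ in knockouts and from -0.12 to 0.12 for the difference of the knockout effects. A single mouse therefore turned the sign of 4 of these 5 medians. Under the other settings the medians ran from -0.02 to 0.10, 0.01 to 0.04, 0.08 to 0.14, 0.09 to 0.16 and -0.01 to 0.02 in the same order. At baseline, scaling by library totals alone gave -0.02, with 34 of 87 estimates above 0. The restriction to the 77 standard subunits was added after seeing the data and moved no median beyond these ranges. Of the 6 genes named as highest or lowest per transcript length, 2 were named by coding length. The mean share of counts moved by less than 1 SD in each group with genes listed in both arms as the denominator and without the 3 members with the most counts (Rpl10, Rpsa and Rpl4). No paired analysis was possible because the mouse numbers used here follow the order of deposit and no label pairs mice between groups. With 3 mice in a group, the median standard error of a member's log2 fold change was 0.15 for the knockout at baseline and 0.17 after STZ, which limits what a single gene can show.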
